A study of Mus musculus with 32 samples.

Results

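Mouse embryos labelled 4-cell and treated with MG132, an inhibitor of the proteasome, were set against embryos labelled 2-cell and treated with the vehicle DMSO, to see how far the RNA content had moved from the 2-cell state with the proteasome blocked. The members were the 2 libraries of each of these groups as their titles name them, 4 of the 32 libraries of the series, over all 55335 gene rows and 1153 repeat subfamily rows. Of these rows, 23171 genes and 1023 subfamilies passed the filter on low counts and were tested. The groups compared were wild type (WT) embryos made by in vitro fertilisation (IVF) from females of 6 to 8 weeks, and whole embryos were sequenced by Smart-seq2, which copies full-length cDNA from small inputs. They were 4-cell embryos in MG132 (the 4C MG132 group), 2-cell embryos in MG132 (2C MG132), 4-cell embryos in DMSO (4C DMSO) and 2-cell embryos in DMSO (2C DMSO), with 2 libraries in each. Groups of 2 libraries at 4 cells and at 2 cells in aphidicolin, which blocks DNA polymerases, and in cycloheximide, which blocks translation, entered a fit of 16 libraries, used for a last comparison and as an alternative. Libraries of 2-cell embryos and MII oocytes from females of 12 months, 2 of each, served to define sets of zygotic and maternal genes. The labels do not give the dose of MG132, when it was added, how long it was present or how many embryos made a library. The labels do not say that the libraries of a group came from separate cultures or females, so p-values measure the spread between these libraries, which may be technical.

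The proteasome is a barrel-shaped protease that degrades proteins tagged with ubiquitin chains, and MG132 blocks its chymotrypsin-like active site, carried by the subunit Psmb5. In cells, a blocked proteasome is known to raise chaperone genes through the heat shock factor HSF1, and proteasome subunit genes through the factor Nfe2l1. In the mouse, the embryonic genome becomes widely active at the 2-cell stage, when the endogenous retrovirus MERVL and genes such as Zscan4d are briefly transcribed, while RNAs stored in the oocyte are degraded. RNAs for ribosomal proteins, mitochondria and growth then accumulate toward the 4-cell stage.

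Total counts were 31442392 and 25358997 in the 4C MG132 libraries and 28566215 and 27332143 in the 2C DMSO libraries, and 14505195 to 32925454 over all 8 libraries of the fit. The share of counts on repeat rows was 22.1% and 24.9% in 4C MG132 against 19.9% and 20.8% in 2C DMSO. Transcripts of the mitochondrial genome took 17.2% and 15.4% of gene counts in 4C MG132, against 4.13% and 3.18% in 2C DMSO. The stage labels were checked on stage markers, which did not all follow them. The 2C DMSO libraries held Zscan4d at 213 and 418 CPM (counts scaled to library size), against 20.8 and 16.7 CPM in 4C MG132. Of 48 tested 2-cell transient genes, 24 were called lower and 6 higher in 4C MG132 than in 2C DMSO. These were 50% and 12.5%, beside 20.1% and 17.7% of all genes. MERVL-int, the internal part of MERVL, had 15300 and 24400 CPM in 4C MG132, overlapping 21900 and 13400 CPM in 2C DMSO. Its promoter repeat MT2_Mm was higher in 4C MG132, with 17900 and 22800 CPM against 9500 and 8880 CPM. Of 15 markers of cumulus and granulosa cells, 7 and 4 had a count in the 4C MG132 libraries, against 12 and 11 in the 2C DMSO libraries. Their summed level was 49.3 and 87.4 CPM in 4C MG132, 409 and 366 CPM in 4C DMSO and 47.6 and 41.9 CPM in 2C DMSO. Most of it was Gja1, a gap junction gene that embryos also express. Amh, Inha and Pappa were at 0 in all 8 libraries, and the other markers of the list had counts in some. Foxl2 had 1 and 18 counts in 4C MG132 and 48 and 1 in 2C DMSO. Fshr had 0 and 0 against 11 and 2 in the same groups, and Lhcgr 0 and 0 against 21 and 16. Cyp11a1 had 1 and 0 against 7 and 97, and Tnfaip6 3 and 19 against 66 and 51. Cyp19a1, the aromatase of granulosa cells, had 0.39 and 0 CPM in 4C MG132, 24.7 and 23.6 CPM in 2C MG132, 0.0729 and 0 CPM in 4C DMSO, and 3.50 and 7.77 CPM in 2C DMSO. It was lower in 4C MG132 than in 2C DMSO (adjusted p = 0.0138), a call lost without the second 2C DMSO library and in a fit of the 4 libraries compared. Markers of blood cells summed to 19.3 and 13.1 CPM in 4C MG132 against 49.0 and 27.0 CPM in 2C DMSO. Those of fibroblasts and oviduct summed to 7.72 and 8.16 CPM in 4C MG132 against 6.81 and 4.77 CPM in 2C DMSO, and those of sperm to 1.70 and 0.852 CPM against 13.8 and 17.2 CPM. The part of these levels in the results was not tested. Values below are CPM as each library gave them, and in these whole-embryo libraries fewer cells of a type and less RNA per cell cannot be told apart.

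The embryos in MG132 at 4 cells differed from 2C DMSO embryos in the level of many genes, and on the genome-wide scale lay nearer to 4C DMSO embryos than to 2C DMSO embryos. Of 23171 tested genes, 8766 (37.8%) were called at an adjusted p of 0.05, 4107 (17.7%) being higher and 4659 (20.1%) lower in 4C MG132. The median log2 fold change over all tested genes was -0.35, and 7324 of the called genes differed at least 4-fold. Against 4C DMSO, 2074 genes were called (8.95%), of which 1325 (5.72%) were higher and 749 (3.23%) lower in 4C MG132, with a median of 0.07. A fit of only the 4 libraries compared turned this balance, with 767 higher and 1165 lower. The passage of vehicle embryos, 4C DMSO against 2C DMSO, gave 10751 called genes (46.4%), with 4652 (20.1%) higher and 6099 (26.3%) lower in 4C DMSO. These comparisons share libraries, so they are set side by side and not correlated. The root mean square distance in log2(CPM + 1) over tested genes was 1.74 to 1.93 between 4C MG132 and 2C DMSO libraries and 1.03 to 1.10 between 4C MG132 and 4C DMSO libraries. It was 2.09 to 2.15 between 4C DMSO and 2C DMSO libraries, and 0.738, 0.564 and 0.714 between the pair of libraries within 4C MG132, 4C DMSO and 2C DMSO. The count against 4C DMSO rested on the vehicle libraries, being 1064 without the first 4C DMSO library and 710 without the second. The count against 2C DMSO stayed between 6081 and 8715 when any 1 library was left out.

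**Figure D1:**
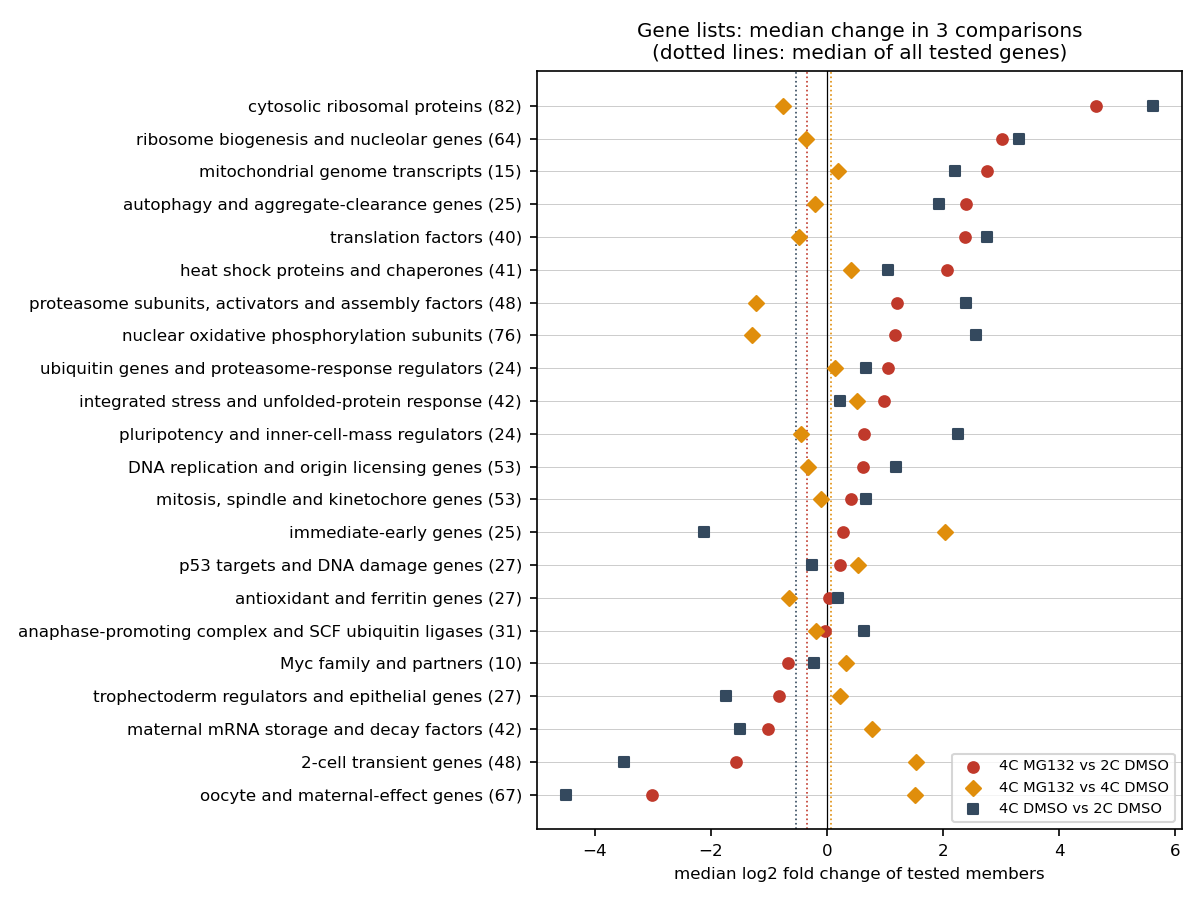
Median log2 fold change (horizontal axis) of each gene list, 1 row a list, in 4C MG132 against 2C DMSO, in 4C MG132 against 4C DMSO and in 4C DMSO against 2C DMSO, with 2 libraries a group and dotted lines for the median of all tested genes. Cytosolic ribosomal proteins lie at 4.63 against 2C DMSO and at -0.76 against 4C DMSO, and oocyte and maternal-effect genes at -3.01 and at 1.52.

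The largest increases over 2C DMSO were genes with no count at the 2-cell stage. Kcnk6, a background potassium channel gene at chr7:29221926-29232515 (mm10), had 27.7 and 26.1 CPM in 4C MG132, 30.2 and 22.2 CPM in 4C DMSO and no count in either 2C DMSO library. It was at least 549-fold higher in 4C MG132 than in 2C DMSO (adjusted p = 0.000159), taking 3 counts over the group as the floor. On the same floor Syngr1, a synaptic vesicle gene, was at least 369-fold higher, Cox7b2, which encodes a cytochrome c oxidase subunit of testis, at least 258-fold, and the integrin gene Itgb5 at least 250-fold. For the last 3 genes the levels in 4C DMSO were above those in 4C MG132, Syngr1 having 12.8 and 24.8 CPM in 4C MG132 and 64.4 and 59.4 CPM in 4C DMSO, but none passed the test against 4C DMSO.

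The largest decreases were genes that ended at or near 0 in the embryos in MG132. Cyp26a1, which degrades retinoic acid (chr19:37697798-37701536), had no count in 4C MG132 or 4C DMSO and 44.3 and 9.27 CPM in 2C DMSO. It was at least 463-fold lower in 4C MG132. The transcription factor gene Sp8 was at least 264-fold lower, the keratin gene Krt88 at least 254-fold and Lbp, which binds lipopolysaccharide, at least 226-fold, and these too had no count in 4C DMSO. Nlrp4c, an oocyte member of the NLR family, had no count in 4C MG132, 2.84 and 2.20 CPM in 4C DMSO and 21.1 and 21.3 CPM in 2C DMSO. It was lower in 4C MG132 than in both vehicle groups, at least 357-fold against 2C DMSO and at least 42.7-fold against 4C DMSO (adjusted p = 0.00719). Dpys, which breaks down pyrimidines, had 0.0354 and 0 CPM in 4C MG132, 10.4 and 5.65 CPM in 4C DMSO and 21.7 and 36.5 CPM in 2C DMSO. This was a ratio of 1460 of 2C DMSO over 4C MG132 (95% counting interval 261 to 57600).

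Listed oocyte and maternal-effect genes were mostly lower than at 2 cells, and 22 of the 67 tested were higher than in 4C DMSO embryos. The larger maternal set described below did not follow this list. Of 68 oocyte and maternal-effect genes, 67 were tested, and 49 fell and 6 rose against 2C DMSO, with a median log2 fold change of -3.01. These were 73.1% and 8.96%, beside 20.1% and 17.7% of all genes. In the vehicle passage 53 of these 67 fell and 6 rose, with a median of -4.50. Against 4C DMSO 22 were higher and 1 lower in 4C MG132 (32.8% and 1.49%, beside 5.72% and 3.23% of all genes), with a median of 1.52. The 22 became 12 without the first and 11 without the second 4C DMSO library, and 13 without the first 4C MG132 library, and 14 when only the 4 libraries compared were fitted. The summed level of the list was 17100 and 16400 CPM in 4C MG132, 19800 and 18300 CPM in 4C DMSO, and 81700 and 98100 CPM in 2C DMSO, the 4C MG132 libraries lying below both vehicle groups. Btg4, an adaptor that brings the deadenylase to maternal RNAs (chr9:51060901-51119875), had 196 and 140 CPM in 4C MG132, 27.8 and 24.9 CPM in 4C DMSO, and 6390 and 7550 CPM in 2C DMSO. The groups did not overlap, and Btg4 fell against 2C DMSO by 5.38 ± 0.32 (SE) on the log2 scale (adjusted p = 4.69e-05) while it was higher than in 4C DMSO by 2.67 ± 0.28 (adjusted p = 0.00629). Bmp15, a growth factor secreted by oocytes, had 109 and 50.1 CPM in 4C MG132, 5.0 and 12.1 CPM in 4C DMSO, and 2210 and 2150 CPM in 2C DMSO. Cnot6l, a catalytic subunit of the deadenylase that acts on maternal RNAs, had 142 and 84.1 CPM, 22.7 and 19.3 CPM, and 896 and 786 CPM in the same order. Bmp15 and Cnot6l fell against 2C DMSO by 4.78 and 2.90 on the log2 scale and were higher than in 4C DMSO by 3.22 and 2.43 (adjusted p = 0.00987 and 0.00788). Tcl1, a co-activator of the kinase Akt that the oocyte stores, had 189 and 150 CPM in 4C MG132, 36.9 and 38.2 CPM in 4C DMSO and 8560 and 6600 CPM in 2C DMSO. It passed both tests. Mael, a germline gene of piRNA biology, stood apart: it had 85.4 and 64.5 CPM in 4C MG132 and 53 and 62.9 CPM in 2C DMSO (adjusted p = 0.45), against 7.98 and 10.1 CPM in 4C DMSO (adjusted p = 0.00746). Of 42 tested factors of maternal RNA storage and decay (45 members), 18 fell and 8 rose against 2C DMSO. These were 42.9% and 19%, beside 20.1% and 17.7% of all genes. Against 4C DMSO 8 (19%) were higher and none lower, beside 5.72% and 3.23% of all genes. At an unadjusted p under 0.05 by edgeR 17 were higher and 2 lower, and DESeq2 called 13 and 1. The 8 became 5 without the first and 4 without the second 4C DMSO library.

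Genes of the 2-cell burst were more often lower than higher against 2C DMSO. Of 55 transiently expressed 2-cell genes, 48 were in the count table and tested. Against 2C DMSO 24 (50%) fell and 6 (12.5%) rose, beside 20.1% and 17.7% of all genes. The median was -1.56. The vehicle passage lowered 32 and raised 6, with a median of -3.50. The 24 became 14 without the second 4C MG132 library. Against 4C DMSO 10 (20.8%) were higher and 3 (6.25%) lower in 4C MG132, beside 5.72% and 3.23% of all genes. The median was 1.54. Leaving out the second 4C DMSO library took the 10 to 2, and leaving out either 4C DMSO library took the 3 to 1. Zscan4d, a telomere and genome stability gene of the 2-cell state, fell against 2C DMSO by 4.07 ± 0.62 on the log2 scale (adjusted p = 0.00141), and its level against 10.5 and 3.40 CPM in 4C DMSO did not pass the test (1.43 ± 0.57, adjusted p = 0.154). Zfp352, a zinc finger gene driven by a retroviral promoter in 2-cell embryos, had 66.7 and 77.7 CPM in 4C MG132, 18.9 and 7.35 CPM in 4C DMSO, and 249 and 230 CPM in 2C DMSO. Its levels lay between the vehicle groups without overlap, and neither difference passed the test (adjusted p = 0.0703 against 4C DMSO and 0.08 against 2C DMSO). Obox3, a homeobox gene of the 2-cell stage, had 42.1 and 35.5 CPM in 4C MG132, 9.15 and 4.29 CPM in 4C DMSO, and 92.7 and 58.4 CPM in 2C DMSO. The gene was higher than in 4C DMSO (adjusted p = 0.0272), a call lost without the first 4C MG132 or the second 4C DMSO library. Pramel7, a gene of naive pluripotency, moved with the vehicle passage: it had 315 and 317 CPM in 4C MG132, 768 and 803 CPM in 4C DMSO, and 3.31 and 3.95 CPM in 2C DMSO. This was an 86.9-fold rise in 4C MG132 over 2C DMSO (adjusted p = 4.69e-05). Near-identical copies in the Zscan4, Obox and Pramel families may share reads, so the split of counts among copies is uncertain.

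Genes switched on at genome activation as a whole were described from libraries outside these comparisons. A zygotic set of 1708 genes and a maternal set of 1020 genes were taken as those called and at least 4-fold higher in 2-cell embryos or in MII oocytes of 12-month females, and 1600 and 988 of them were tested here. Of the zygotic set, 16.6% rose and 22.1% fell in 4C MG132 against 2C DMSO, with a median of -0.61, near the 17.7% and 20.1% of all genes. In the vehicle passage 14.9% rose and 32.4% fell, with a median of -1.59, beside 20.1% and 26.3% of all genes. Against 4C DMSO, 7.12% were higher and 2.25% lower in 4C MG132, with a median of 0.74, beside 5.72% and 3.23% of all genes. In 2C MG132 embryos the same set had been far lower, with 0.125% higher and 34.1% lower than in 2C DMSO and a median of -3.20, beside 3.03% and 5.39% of all genes. From 2C MG132 to 4C MG132, 46.1% of the zygotic set were higher and 15.8% lower at 4 cells, beside 22.8% and 23.5% of all genes. Of the maternal set, 31.9% rose and 18% fell in 4C MG132 against 2C DMSO, with a median of 0.34, beside 17.7% and 20.1% of all genes. This went the other way from the list of oocyte and maternal-effect genes. In the vehicle passage 36.6% rose and 23.5% fell, with a median of 0.46. Against 4C DMSO 5.97% of the maternal set were higher and 8.6% lower in 4C MG132, with a median of -0.10, beside 5.72% and 3.23% of all genes. The median of the maternal set against 2C DMSO turned to -0.26 when the threshold of the set was 2-fold.

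**Figure D2:**
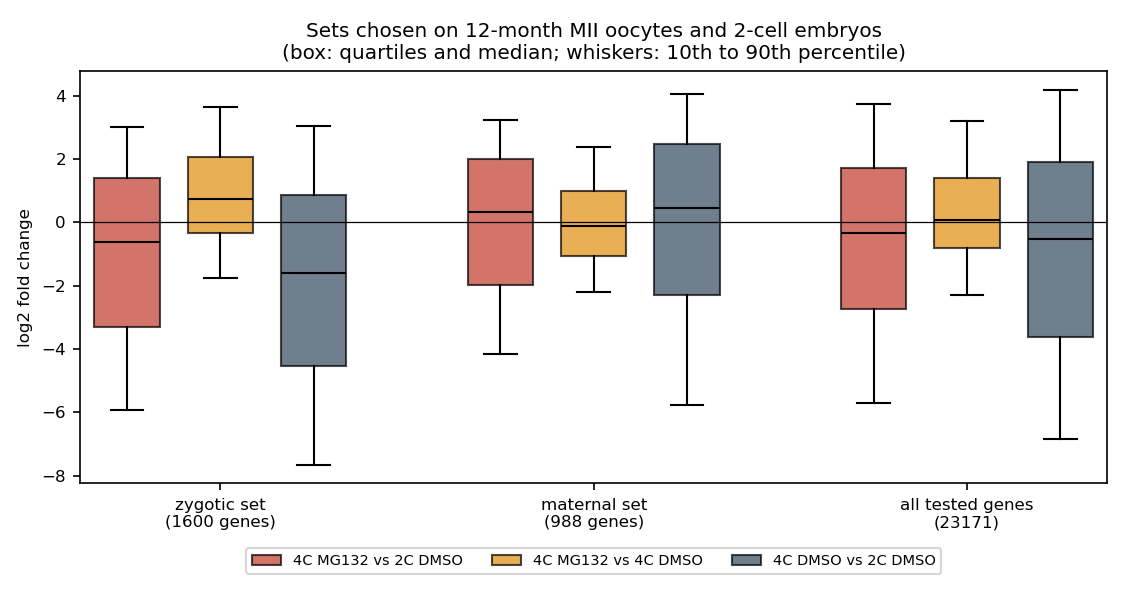
Log2 fold changes (vertical axis) of the zygotic and maternal sets and of all tested genes in 4C MG132 against 2C DMSO, 4C MG132 against 4C DMSO and 4C DMSO against 2C DMSO, drawn as boxes with the median and quartiles over genes and whiskers over the middle range named in the title. The zygotic set lies at a median of -0.61 against 2C DMSO and 0.74 against 4C DMSO.

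Genes of protein synthesis were high in the embryos in MG132. Of 82 cytosolic ribosomal protein genes, 81 rose against 2C DMSO, with a median log2 fold change of 4.63, and 81 rose in the vehicle passage, with a median of 5.61. This was 98.8% in each, beside 17.7% and 20.1% of all genes. Rps27, of the small subunit (chr3:90212522-90213651), had 1350 and 1110 CPM in 4C MG132, 1720 and 1880 CPM in 4C DMSO and 5.14 and 1.87 CPM in 2C DMSO. This was a 350-fold rise over 2C DMSO (8.45 ± 0.56 on the log2 scale, adjusted p = 5.67e-05). The libraries of 4C MG132 lay below those of 4C DMSO, a difference that did not pass the test (adjusted p = 0.435). For 15 of the 82 genes (18.3%, beside 3.23% of all genes) the shortfall against 4C DMSO did pass, and none was higher. At an unadjusted p under 0.05 by edgeR 38 were lower and 0 higher, and DESeq2 called 33 and 0. Rpl3, the large-subunit protein next to the peptidyl transferase centre, had 74.7 and 49.1 CPM in 4C MG132, 443 and 439 CPM in 4C DMSO, and 25.3 and 17.0 CPM in 2C DMSO. Its level was below that of 4C DMSO by 2.83 ± 0.46 on the log2 scale (adjusted p = 0.012). Rpl5, which carries the 5S RNA into the large subunit, was lower than in 4C DMSO by 2.25. The 15 became 6 without the first 4C DMSO library or the second 4C MG132 library, 7 without the second 4C DMSO library and 24 without either 2C MG132 library, and 46 when only the 4 libraries compared were fitted. Processed copies of ribosomal protein genes may share their reads.

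Ribosome biogenesis and nucleolar genes rose too, with 61 of 64 (95.3%) higher than in 2C DMSO, beside 17.7% of all genes, and 63 in the vehicle passage. Against 4C DMSO 2 were lower (3.12%, near the 3.23% of all genes) and none higher. The 2 became 0 without the second 4C MG132 or either 4C DMSO library, 6 without either 2C DMSO library and 10 when only the 4 libraries compared were fitted. Fbl, the fibrillarin that methylates ribosomal RNA, had 89.7 and 70.8 CPM in 4C MG132, 58.5 and 45.6 CPM in 4C DMSO, and 2.87 and 2.93 CPM in 2C DMSO. Of 40 translation factors, 29 (72.5%) rose and 3 (7.5%) fell against 2C DMSO, beside 17.7% and 20.1% of all genes. Against 4C DMSO 12 (30%) were lower and none higher, beside 3.23% and 5.72% of all genes. At an unadjusted p under 0.05 by edgeR 16 were lower and 3 higher, and DESeq2 called 14 and 2. The 12 rested on single libraries, being 2 without the first 4C MG132 or the first 4C DMSO library, 3 without the second 4C DMSO library and 6 without the second 4C MG132 library. Eif3c, a subunit of the initiation factor eIF3, and Pabpc1, the cytoplasmic poly(A)-binding protein, rose against 2C DMSO by 5.21 and 4.91 on the log2 scale. Eif2b1, a subunit of the exchange factor for eIF2, was lower than in both vehicle groups, with 105 and 104 CPM in 4C MG132, 370 and 414 CPM in 4C DMSO, and 311 and 447 CPM in 2C DMSO.

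Mitochondrial genes divided by genome. All 15 transcripts of the mitochondrial genome rose against 2C DMSO, with a median of 2.76 beside 2.20 in the vehicle passage, and none passed the test against 4C DMSO by edgeR (0 of 15 in either direction, 2 higher at an unadjusted p under 0.05, and 0 by DESeq2). mt-Co3, a core subunit of cytochrome c oxidase, had 4600 and 5010 CPM in 4C MG132, 2640 and 2110 CPM in 4C DMSO, and 347 and 296 CPM in 2C DMSO. Of the 76 tested nuclear subunits of oxidative phosphorylation (77 members), 34 rose and 9 fell against 2C DMSO, with a median of 1.17. These were 44.7% and 11.8%, beside 17.7% and 20.1% of all genes. The vehicle passage raised 58 and lowered 4, with a median of 2.57. Against 4C DMSO 24 (31.6%) were lower and none higher, beside 3.23% and 5.72% of all genes. At an unadjusted p under 0.05 by edgeR 50 were lower and 0 higher, and DESeq2 called 43 and 0. The 24 became 14 without the second 4C MG132 library and 13 and 12 without the first and the second 4C DMSO library, and 41 when only the 4 libraries compared were fitted. The 9 became 5 without the second 2C DMSO library. Uqcrq, a small subunit of complex III, rose with the stage, having 503 and 568 CPM in 4C MG132, 667 and 639 CPM in 4C DMSO and 9.01 and 10.4 CPM in 2C DMSO. Ndufa8, an accessory subunit of complex I, was lower than in both vehicle groups, with 1.38 and 1.30 CPM in 4C MG132, 33.1 and 50.5 CPM in 4C DMSO, and 6.74 and 23.8 CPM in 2C DMSO (adjusted p = 0.00788 against 4C DMSO and 0.00302 against 2C DMSO).

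From 500 nt up, the median difference between 4C MG132 and 4C DMSO rose with transcript length. The 145 tested protein-coding genes below 500 nt broke this order, with a median log2 fold change of 0.00. The median log2 fold change was 0.47 for the 5543 tested protein-coding genes whose longest transcript had 4000 nt or more, and -0.44 for the 865 genes of 500 to 1000 nt, with -0.09 for 1000 to 2000 nt and 0.08 for 2000 to 4000 nt. Ribosomal protein, oxidative phosphorylation and proteasome genes are mostly short, and the part of length in their shortfall was not tested. Against 2C DMSO the medians mostly fell with length, with a rise at 2000 to 4000 nt. They were 0.225 below 500 nt, 0.00 for 500 to 1000 nt, -0.35 for 1000 to 2000 nt, -0.27 for 2000 to 4000 nt and -0.45 for 4000 nt or more. In the vehicle passage they were 0.24, 0.47, 0.02, -0.35 and -0.92 for these classes in the same order. The comparisons share libraries.

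Of the genes of the drug's own target, 1 passed the test as higher than in vehicle embryos of the same stage at 4 cells and 15 as lower. Of 49 genes of proteasome subunits, activators and assembly factors, 48 were tested, and 21 rose and 7 fell against 2C DMSO, with a median of 1.20. These were 43.8% and 14.6%, beside 17.7% and 20.1% of all genes. The vehicle passage raised 31 and lowered 4, with a median of 2.39. Against 4C DMSO 15 (31.2%) were lower and 1 (2.08%) higher in 4C MG132, beside 3.23% and 5.72% of all genes. The median was -1.22. In 2C MG132 embryos 17 of the 48 were higher and 3 lower than in 2C DMSO, beside 3.03% and 5.39% of all genes, with a median of 0.75. Their summed level was 5140 and 5490 CPM in 4C MG132, 4440 and 4820 CPM in 2C MG132, 12400 and 12000 CPM in 4C DMSO, and 2090 and 2640 CPM in 2C DMSO. Psmb5, the subunit with the chymotrypsin-like active site (chr14:54614119-54618022), had 40.3 and 49.7 CPM in 4C MG132, 70.1 and 80.6 CPM in 4C DMSO, and 0.504 and 0.409 CPM in 2C DMSO. It rose 97.5-fold over 2C DMSO (6.61 ± 0.45 on the log2 scale, adjusted p = 5.67e-05), and its level below that of 4C DMSO did not pass the test (adjusted p = 0.204). Psmd14, the deubiquitinase of the lid, had 186 and 267 CPM in 4C MG132, 552 and 482 CPM in 4C DMSO, and 8.45 and 13.1 CPM in 2C DMSO. The gene rose over 2C DMSO by 4.39 ± 0.38 on the log2 scale. The lid subunits Psmd13 and Psmd6 and the core subunits Psmb1 and Psma3 rose over 2C DMSO as well, by 5.71, 3.93, 4.40 and 3.94.

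A few subunits went the other way and fell below both vehicle groups. Psma7, an alpha-ring subunit (chr2:180036374-180042433), had 37.5 and 21.3 CPM in 4C MG132, 284 and 311 CPM in 4C DMSO, and 103 and 141 CPM in 2C DMSO. It was lower by 3.34 ± 0.39 on the log2 scale than in 4C DMSO (adjusted p = 0.00719) and by 2.05 ± 0.37 than in 2C DMSO (adjusted p = 0.00305). Psmb3, a beta-ring subunit without an active site, had 20.9 and 20.5 CPM in 4C MG132, 127 and 187 CPM in 4C DMSO, and 117 and 108 CPM in 2C DMSO. Psmb6, which carries the caspase-like active site, had 42.3 and 28.0 CPM, 171 and 184 CPM, and 162 and 202 CPM in the same order. Both passed the 2 tests, and in each case no 4C MG132 library reached a library of either vehicle group. The 1 gene above 4C DMSO was Psme4, the activator PA200, by 1.38 ± 0.28 on the log2 scale (adjusted p = 0.0206), named because the count was 1. Its call was lost without the second 4C MG132 or either 4C DMSO library. The 15 lower genes became 7 and 6 without the first and the second 4C DMSO library and 9 without either 4C MG132 library, and 24 when only the 4 libraries compared were fitted. Nfe2l1 itself had 25.9 and 15.2 CPM in 4C MG132, 10.5 and 10.6 CPM in 4C DMSO, and 17.7 and 10.5 CPM in 2C DMSO. It passed neither test. The activity of Nfe2l1 is known to be set by processing of its protein.

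**Figure D3:**
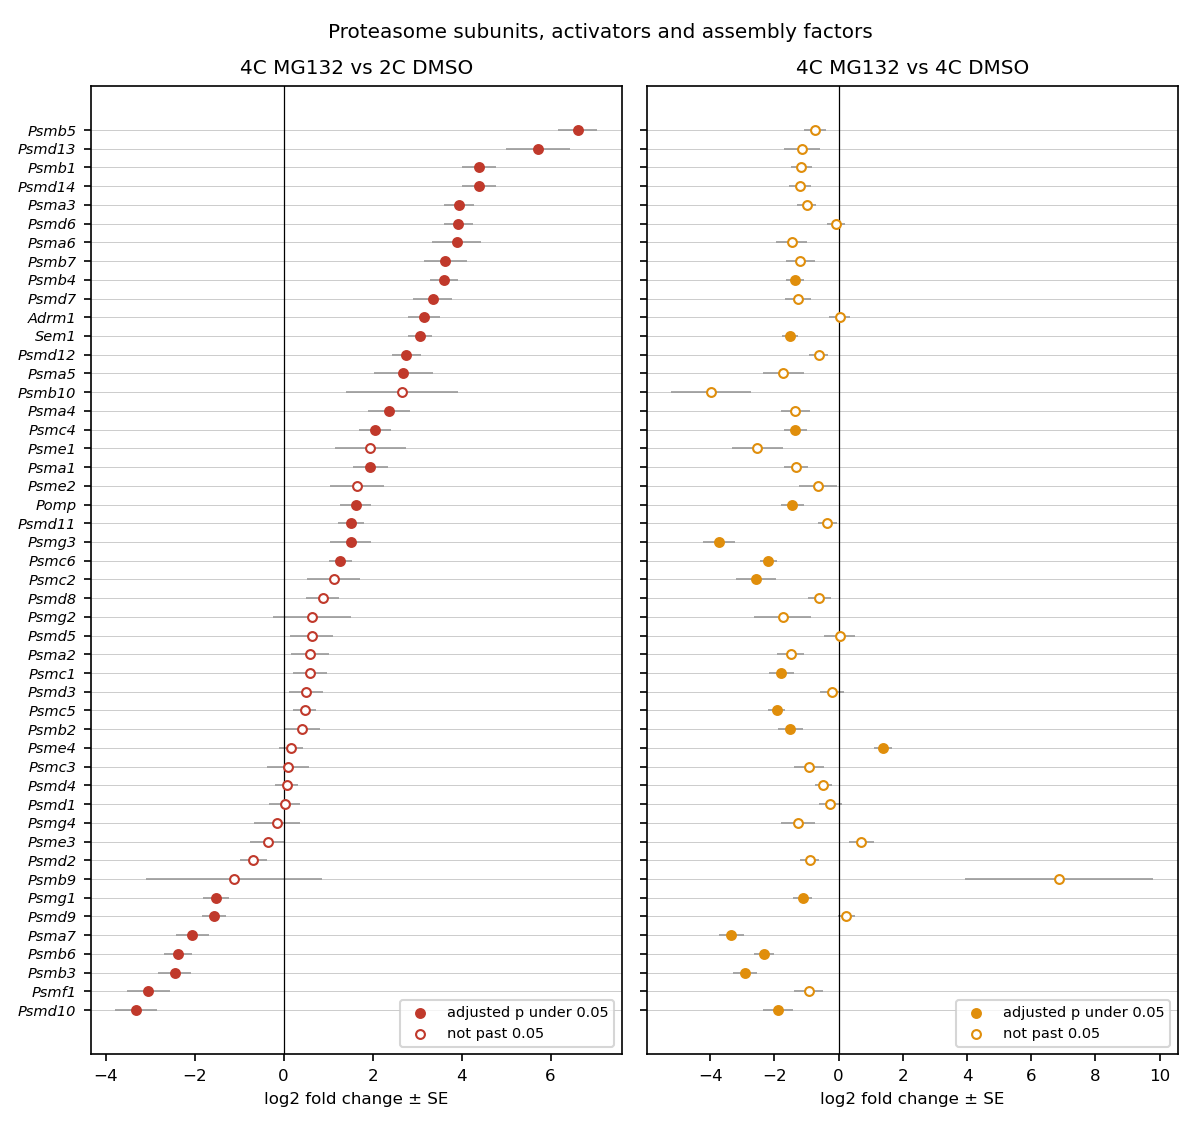
Log2 fold change ± SE (horizontal axes) of each tested proteasome gene, 1 row a gene, in 4C MG132 against 2C DMSO (left) and in 4C MG132 against 4C DMSO (right), with filled points for an adjusted p under 0.05. Psmb5 lies at 6.61 on the left and -0.74 on the right, while Psma7, Psmb3 and Psmb6 lie below 0 in both panels, which share the 4C MG132 libraries.

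Among 24 ubiquitin genes and regulators of the response to proteasome loss, 13 (54.2%) rose and 2 (8.33%) fell against 2C DMSO. The shares of all genes were 17.7% and 20.1%. Against 4C DMSO 5 (20.8%) were higher and 2 (8.33%) lower, beside 5.72% and 3.23% of all genes. The 5 did not hold when libraries were left out: the count was 0 without the first 4C MG132 library or either 4C DMSO library, 1 without either 2C MG132 library and 2 without either 2C DMSO library. A fit of only the 4 libraries compared gave 3 higher and 4 lower. Ubb, a polyubiquitin gene, had 802 and 1070 CPM in 4C MG132, 479 and 422 CPM in 4C DMSO, and 1430 and 1850 CPM in 2C DMSO. Ubb was lower than in 2C DMSO (adjusted p = 0.0395) and higher than in 4C DMSO (adjusted p = 0.041), and each of these calls was lost under 13 alternatives. Ngly1, the glycanase needed to activate Nfe2l1 protein, fell against 2C DMSO by 3.54 on the log2 scale, with 5.14 and 3.54 CPM in 4C MG132 and 51.6 and 49.7 CPM in 2C DMSO. Ufd1, a cofactor that brings ubiquitinated proteins to the proteasome, had 18.4 and 20.9 CPM in 4C MG132, 96.9 and 85.6 CPM in 4C DMSO, and 5.17 and 5.93 CPM in 2C DMSO. This was lower than in 4C DMSO by 2.21 ± 0.33 (adjusted p = 0.00877).

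Several chaperone genes stood above both vehicle groups. Of 44 heat shock and chaperone genes, 41 were tested, and 25 rose and 3 fell against 2C DMSO, with a median of 2.07. These were 61% and 7.32%, beside 17.7% and 20.1% of all genes. The vehicle passage raised 21 and lowered 7, with a median of 1.05. Against 4C DMSO 12 (29.3%) were higher and 1 (2.44%) lower in 4C MG132, beside 5.72% and 3.23% of all genes. The median was 0.42, or 0.55 with genes at 0 counted at their bound. The 12 became 6 and 5 without the first and the second 4C DMSO library, and the 1 lower became 4 when only the 4 libraries compared were fitted. Hspe1, the mitochondrial chaperonin cofactor of HSP60 (chr1:55088132-55091307), had 932 and 729 CPM in 4C MG132, 76.3 and 56.3 CPM in 4C DMSO, and 87.4 and 99.5 CPM in 2C DMSO. It was 12.5-fold higher than in 4C DMSO (3.65 ± 0.30 on the log2 scale, adjusted p = 0.00425) and 8.89-fold higher than in 2C DMSO (3.15 ± 0.29, adjusted p = 0.000126), and the vehicle groups did not differ past the threshold (adjusted p = 0.155). Dnajb1, the HSP40 partner of HSP70 (chr8:83608193-83612653), had 405 and 796 CPM in 4C MG132, 27.2 and 31.5 CPM in 4C DMSO, and 87.1 and 43.5 CPM in 2C DMSO. Every 4C MG132 library was above every vehicle library, by 4.35 ± 0.47 on the log2 scale over 4C DMSO (adjusted p = 0.00629) and 3.20 ± 0.45 over 2C DMSO (adjusted p = 0.000888).

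The inducible HSP70 genes, which are near silent in unstressed cells, were among them. Hspa1a (chr17:34969190-34972156) had 56.8 and 51.2 CPM in 4C MG132, 0.401 and 0.696 CPM in 4C DMSO, and 1.86 and 0.0682 CPM in 2C DMSO. Its neighbour Hspa1b (chr17:34956436-34959238) had 72.0 and 31.4 CPM, 0.401 and 0.232 CPM, and 1.51 and 0.136 CPM in the same order. Hspa1a was higher by 5.79 ± 1.18 on the log2 scale than in 2C DMSO (adjusted p = 0.00553) and by 6.61 ± 1.24 than in 4C DMSO (adjusted p = 0.0172), and this second call was lost without either 4C DMSO library. Hspa1b was higher by 5.96 ± 1.03 (adjusted p = 0.00245) and 7.33 ± 1.11 (adjusted p = 0.00923), calls that held under every alternative run. The coding sequences of Hspa1a and Hspa1b are nearly identical, so their reads may be split between them or lost. Hsph1, an HSP70 exchange factor, had 514 and 426 CPM in 4C MG132, 115 and 70.6 CPM in 4C DMSO, and 23.1 and 10.3 CPM in 2C DMSO. This was a step up with stage and a further one in MG132 (adjusted p = 0.0162 against 4C DMSO, a call lost without the second 4C DMSO library). Bag3, which links HSP70 to selective autophagy, had 42.1 and 43.1 CPM in 4C MG132, 5.07 and 12.0 CPM in 4C DMSO, and 5.26 and 4.26 CPM in 2C DMSO. Bag3 rose over 2C DMSO by 3.16 ± 0.62 (adjusted p = 0.0046), and its call against 4C DMSO (adjusted p = 0.047) was lost under 10 alternatives. Hspa4l, a testis and oocyte HSP70 relative, had 24.9 and 15.7 CPM in 4C MG132, 3.32 and 1.59 CPM in 4C DMSO, and 54.1 and 38.7 CPM in 2C DMSO. This was higher than in 4C DMSO (adjusted p = 0.0115) and not called against 2C DMSO (adjusted p = 0.068).

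Other chaperone genes rose with the stage. Hspa8, the constitutive HSC70, had 1050 and 1400 CPM in 4C MG132, 932 and 941 CPM in 4C DMSO, and 61.3 and 35.2 CPM in 2C DMSO. This was a 25.5-fold rise over 2C DMSO with no call against 4C DMSO (0.39 ± 0.31 on the log2 scale, adjusted p = 0.469). Cacybp, a binding partner of ubiquitin ligases and HSP90, rose over both vehicle groups, with 363 and 674 CPM in 4C MG132, 163 and 126 CPM in 4C DMSO, and 7.06 and 3.75 CPM in 2C DMSO. The call against 4C DMSO was lost without the second 4C MG132 or either 4C DMSO library. Hspb1, the small chaperone HSP27, had 246 and 506 CPM in 4C MG132, 43.8 and 1.59 CPM in 4C DMSO, and 75 and 60.8 CPM in 2C DMSO. It passed neither test (adjusted p = 0.0635 against 4C DMSO and 0.0967 against 2C DMSO). Its 4C DMSO libraries were far apart.

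**Figure D4:**
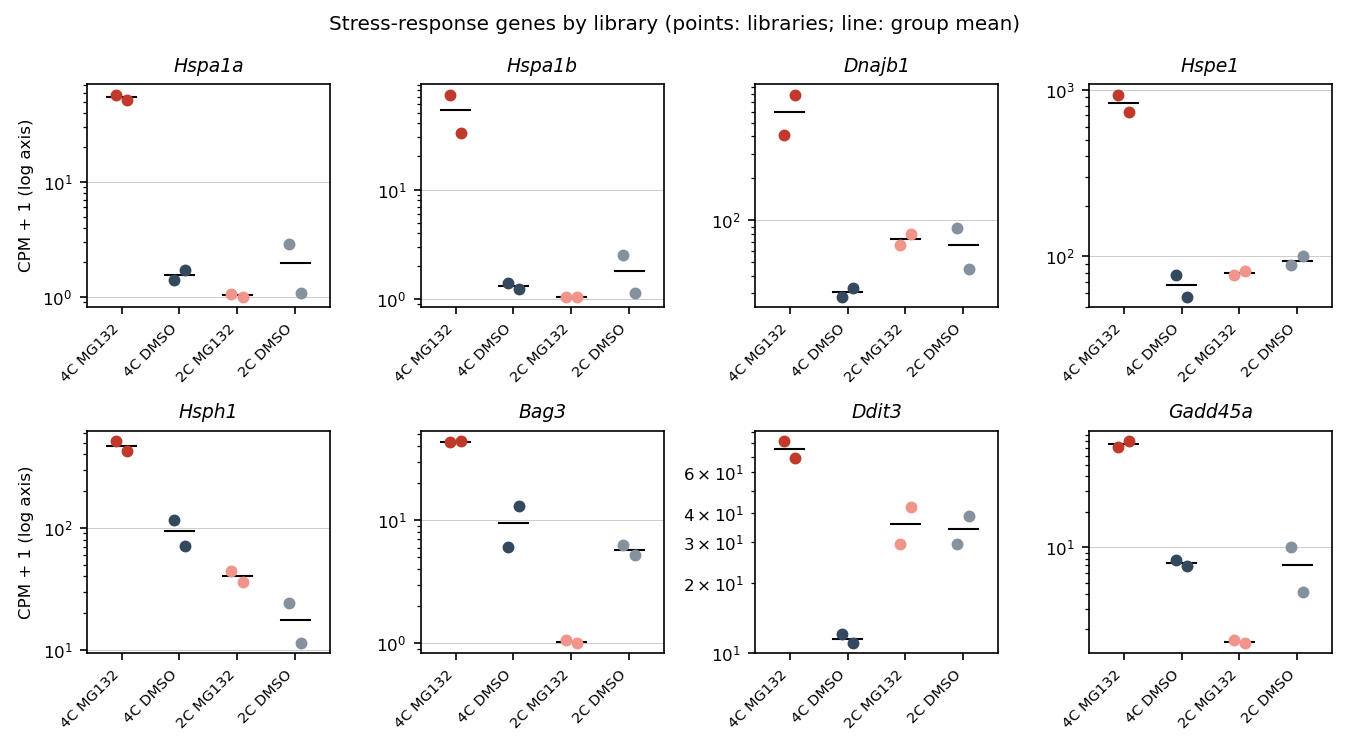
CPM + 1 of stress genes (log axis) in each library of 4C MG132, 4C DMSO, 2C MG132 and 2C DMSO, 1 point a library, 2 libraries a group and a line for the group mean. Dnajb1 and Hspe1 stand above the vehicle groups in both 4C MG132 libraries, and Hspa1a and Hspa1b lie at 31.4 CPM or more in 4C MG132 against 1.86 CPM or less in the vehicle libraries.

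Promoters of 3 chaperone genes that rose over both vehicle groups are shown because the heat shock element, the binding motif of HSF1, is built of inverted GAA units. The 250 bases before the RefSeq start (GRCm38.p6) were searched on both strands for the letters GAANNTTC or TTCNNGAA, a pair of units, given in capitals. The pair occurred in 12 of the 36 heat shock and chaperone genes with a window in the table (33.3%, of 44 members). It occurred in 3932 of 27025 windowed genes in all (14.5%) and in 5 of 42 proteasome genes (11.9%, of 49 members). A run of 3 such units in alternate direction, which overlaps the pairs, occurred in 3 of the 36 genes (8.33%) and in 139 of 27025 (0.514%). Hspe1 held 3 overlapping pairs, starting 89, 84 and 79 bases before the start, in a window it shares with its divergent neighbour Hspd1, the gene of HSP60. The genes with the run of 3 units were Hspe1, Hspd1 and Dnajb6. Hspe1 and Hspd1 were counted apart, for the pair and for the run, though their windows overlap. Hspa1b held 1 pair at 104 bases and Hsph1 1 pair at 33 bases. Hspa1a and Fkbp4, called over both vehicle groups too, held 1 pair each, the call of Fkbp4 over 4C DMSO being lost under 7 alternatives. Dnajb1, Bag3 and Cacybp held none of these letters in the window. Hspa4l, called over 4C DMSO alone, held none.
Hspe1 (chr1:55087898-55088147, plus strand): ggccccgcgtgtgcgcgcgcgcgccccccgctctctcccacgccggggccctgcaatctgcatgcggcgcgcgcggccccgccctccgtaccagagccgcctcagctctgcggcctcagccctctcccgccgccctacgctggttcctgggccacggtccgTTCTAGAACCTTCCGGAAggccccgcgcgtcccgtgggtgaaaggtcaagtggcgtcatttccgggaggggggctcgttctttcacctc
Hspa1b (chr17:34959239-34959488, minus strand): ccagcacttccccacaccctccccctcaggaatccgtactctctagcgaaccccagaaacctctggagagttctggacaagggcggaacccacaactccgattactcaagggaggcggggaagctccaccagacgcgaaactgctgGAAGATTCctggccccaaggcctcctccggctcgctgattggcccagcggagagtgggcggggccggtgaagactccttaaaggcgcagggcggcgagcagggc
Hsph1 (chr5:149636337-149636586, minus strand): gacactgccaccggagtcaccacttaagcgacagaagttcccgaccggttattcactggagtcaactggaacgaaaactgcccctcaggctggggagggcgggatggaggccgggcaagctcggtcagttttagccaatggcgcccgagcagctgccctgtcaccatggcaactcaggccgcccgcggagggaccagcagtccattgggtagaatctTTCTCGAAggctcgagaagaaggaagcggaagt
The antioxidant response letters TGACNNNGC or GCNNNGTCA, which are part of the motif that Nfe2l1 and Nfe2l2 bind, occurred in 6 of 42 proteasome genes (14.3%), in 8 of 36 heat shock and chaperone genes (22.2%) and in 3112 of 27025 genes (11.5%). A match to letters is a description of the window and not a binding site.

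Genes of the integrated stress and unfolded-protein responses rose in part. Of 42 such genes, 17 (40.5%) rose and 4 (9.52%) fell against 2C DMSO, beside 17.7% and 20.1% of all genes. The median was 0.98, beside 0.23 in the vehicle passage. Against 4C DMSO 6 (14.3%) were higher and 1 (2.38%) lower, beside 5.72% and 3.23% of all genes. The 6 became 3 and 2 without the first and the second 4C DMSO library. Ddit3, the stress transcription factor CHOP (chr10:127290774-127296288), had 80.9 and 68.4 CPM in 4C MG132, 11.0 and 9.98 CPM in 4C DMSO, and 28.4 and 37.9 CPM in 2C DMSO. It was higher in both 4C MG132 libraries than in any vehicle library, by 2.83 ± 0.36 on the log2 scale over 4C DMSO (adjusted p = 0.00746) and by 1.17 ± 0.34 over 2C DMSO (adjusted p = 0.0267, a call lost under 4 alternatives). Asns, the asparagine synthetase that ATF4 induces, had 23.1 and 44.1 CPM in 4C MG132, 8.68 and 4.56 CPM in 4C DMSO, and 0.126 and 0.0682 CPM in 2C DMSO. The gene was called against 2C DMSO (8.36 ± 0.94, adjusted p = 0.000306) and not against 4C DMSO (adjusted p = 0.0671). Hspa5, the chaperone BiP of the endoplasmic reticulum, rose over 2C DMSO by 3.71 ± 0.29 and had 379 and 398 CPM in 4C MG132 against 214 and 185 CPM in 4C DMSO, just short of the threshold (adjusted p = 0.0523). Ppp1r15a, the phosphatase subunit GADD34, had 55.8 and 118 CPM in 4C MG132, 16.4 and 17.0 CPM in 4C DMSO, and 30.9 and 11.0 CPM in 2C DMSO. It passed both tests, but neither call held without the second 4C MG132 library. Slc7a11, the cystine transporter, was higher than in 4C DMSO by 2.70 ± 0.40 (adjusted p = 0.00899) and lower than in 2C DMSO by 2.47 ± 0.38 (adjusted p = 0.00152), with 18.2 and 8.74 CPM in 4C MG132, 2.22 and 1.93 CPM in 4C DMSO, and 75.1 and 74.1 CPM in 2C DMSO. Atf3, a factor downstream of ATF4 in other cells, fell against 2C DMSO by 4.37 ± 1.38 (adjusted p = 0.0358), a call lost under 6 alternatives.

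Antioxidant and ferritin genes showed no common direction, with 7 of 27 (25.9%) rising and 8 (29.6%) falling against 2C DMSO. The shares of all genes were 17.7% and 20.1%. Against 4C DMSO 1 (3.7%) was higher and 2 (7.41%) lower, beside 5.72% and 3.23% of all genes. Hmox1, the haem oxygenase that oxidative stress induces, had 0 and 0.404 CPM in 4C MG132, 1.68 and 0 CPM in 4C DMSO, and 1.17 and 4.84 CPM in 2C DMSO. It passed neither test. Autophagy and aggregate-clearance genes followed the stage, 14 of 25 (56%) rising and 2 (8%) falling against 2C DMSO, beside 15 and 3 in the vehicle passage. Against 4C DMSO 1 was lower (4%, near the 3.23% of all genes) and none higher. Map1lc3b, the LC3 protein of the autophagosome membrane, had 3560 and 5130 CPM in 4C MG132, 8180 and 8510 CPM in 4C DMSO, and 162 and 135 CPM in 2C DMSO. This was a 29.3-fold rise over 2C DMSO. Sqstm1, the autophagy receptor p62, had 3.58 and 15.5 CPM in 4C MG132, 16.8 and 9.48 CPM in 4C DMSO, and 7.15 and 16.2 CPM in 2C DMSO, with overlapping groups and no call.

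Several growth-arrest and immediate-early genes were higher than in 4C DMSO. Of 28 p53 target and DNA damage genes, 27 were tested, and 4 rose and 3 fell against 2C DMSO (14.8% and 11.1%, below the 17.7% and 20.1% of all genes). Against 4C DMSO 6 (22.2%) were higher and none lower, beside 5.72% and 3.23% of all genes. At an unadjusted p under 0.05 by edgeR 9 were higher and 1 lower, and DESeq2 called 9 and 1. The 6 became 3 without either 4C DMSO library. Gadd45a, a growth-arrest gene that stress induces, had 70.9 and 79.0 CPM in 4C MG132, 6.78 and 5.92 CPM in 4C DMSO, and 8.95 and 3.14 CPM in 2C DMSO. It was higher by 3.56 ± 0.54 over 4C DMSO (adjusted p = 0.0093) and 3.63 ± 0.54 over 2C DMSO (adjusted p = 0.00125). Btg2, an antiproliferative p53 target, had 25.6 and 35.4 CPM in 4C MG132, 2.08 and 1.66 CPM in 4C DMSO, and 11.3 and 20.5 CPM in 2C DMSO. The gene was called against 4C DMSO (4.02 ± 0.61, adjusted p = 0.0093) and not against 2C DMSO (adjusted p = 0.192). Cdkn1a, the cell-cycle inhibitor p21, had 18.3 and 43.8 CPM in 4C MG132, 19.4 and 38.3 CPM in 4C DMSO, and 12.9 and 9.89 CPM in 2C DMSO. The gene was called against neither. Of 25 tested immediate-early genes (29 members), 7 (28%) rose and 4 (16%) fell against 2C DMSO, beside 17.7% and 20.1% of all genes. Against 4C DMSO 4 (16%) were higher and none lower, beside 5.72% and 3.23% of all genes (11 and 0 at an unadjusted p under 0.05 by edgeR, 10 and 0 by DESeq2). The 7 became 3 without the second 2C DMSO library, the 4 that fell became 0 to 5 when 1 library was left out, and the 4 higher than in 4C DMSO became 2 without the second 4C DMSO library and 7 when only the 4 libraries compared were fitted. Egr1, a zinc finger factor of the first response to stimuli, had 8.61 and 12.4 CPM in 4C MG132, 0.292 and 0.0387 CPM in 4C DMSO, and 9.61 and 10.4 CPM in 2C DMSO. Dusp1, a phosphatase that turns off MAP kinases, had 20.2 and 32.8 CPM, 1.75 and 0.193 CPM, and 19.7 and 24.1 CPM in the same order. Both were near the 2C DMSO level and were higher than in 4C DMSO, by 5.94 ± 0.87 (adjusted p = 0.00877) and 4.75 ± 0.83 (adjusted p = 0.0143) on the log2 scale.

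Cell-cycle lists showed both directions against 2C DMSO. Of 53 mitosis and kinetochore genes 17 (32.1%) rose and 11 (20.8%) fell, beside 17.7% and 20.1% of all genes. Against 4C DMSO 3 were higher (5.66%, near the 5.72% of all genes) and none lower, the 3 becoming 1 without the second 4C DMSO library. At an unadjusted p under 0.05 by edgeR 6 were higher and 8 lower, and by DESeq2 3 and 5. Ccnb1, the mitotic cyclin B1 whose protein the proteasome destroys at anaphase, had 1050 and 1670 CPM in 4C MG132, 2150 and 2080 CPM in 4C DMSO, and 2360 and 2400 CPM in 2C DMSO. It passed neither test (adjusted p = 0.242 and 0.0745). Cdc20, the activator of the anaphase-promoting complex, rose over 2C DMSO by 1.41 ± 0.30, with 125 and 125 CPM in 4C MG132, 182 and 188 CPM in 4C DMSO, and 53.6 and 40.3 CPM in 2C DMSO. Of 31 genes of the anaphase-promoting complex and SCF ligases, 8 (25.8%) rose and 7 (22.6%) fell against 2C DMSO. Against 4C DMSO 3 (9.68%) were lower, beside 3.23% of all genes, and 2 (6.45%) were higher, near the 5.72% of all genes. The 2 higher genes were Fbxw7 and Fbxw11, substrate receptors of SCF ligases. Fbxw7 had 30.2 and 33.0 CPM in 4C MG132, 5.03 and 5.49 CPM in 4C DMSO, and 6.21 and 6.07 CPM in 2C DMSO. The calls of Fbxw7 and Fbxw11 over 4C DMSO were both lost without either 4C DMSO library. Nedd8, the modifier that activates cullin ligases, had 69.1 and 55.1 CPM in 4C MG132, 402 and 367 CPM in 4C DMSO, and 50.1 and 112 CPM in 2C DMSO. Nedd8 was lower than in 4C DMSO by 2.63 ± 0.44 (adjusted p = 0.0126). Of 53 replication and licensing genes 19 (35.8%) rose and 8 (15.1%) fell against 2C DMSO, the 8 becoming 5 without the second 2C DMSO library. Ccne1, the S-phase cyclin E1 that an SCF ligase with Fbxw7 marks for destruction, had 205 and 274 CPM in 4C MG132, 79.0 and 69.5 CPM in 4C DMSO, and 40.3 and 19.6 CPM in 2C DMSO. This was higher than in 2C DMSO by 3.0 ± 0.41 (adjusted p = 0.000793) and than in 4C DMSO by 1.69 ± 0.39 (adjusted p = 0.0325, a call lost under 4 alternatives).

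Of 24 tested pluripotency and inner-cell-mass regulators (25 members), 10 (41.7%) rose and 3 (12.5%) fell against 2C DMSO. The shares of all genes were 17.7% and 20.1%. The 10 became 6 without the first 2C DMSO library. The median was 0.64, or 0.35 with genes at 0 counted at their bound. In the vehicle passage 12 rose and 3 fell, with a median of 2.25. Against 4C DMSO 1 (4.17%) was higher and 3 (12.5%) lower in 4C MG132, beside 5.72% and 3.23% of all genes. Dppa5a, an RNA-binding pluripotency gene, had 3010 and 4030 CPM in 4C MG132, 5060 and 5720 CPM in 4C DMSO, and 41.4 and 104 CPM in 2C DMSO. The gene rose over 2C DMSO by 5.60 ± 0.56. Fgf4, the growth factor of the later inner cell mass, had 23.1 and 56.3 CPM in 4C MG132, 38.9 and 33.0 CPM in 4C DMSO, and 1.70 and 0.307 CPM in 2C DMSO. The gene rose by 5.29 ± 0.88. Pou5f1, the pluripotency factor OCT4 that oocytes also store, fell in both passages, with 0.815 and 0.717 CPM in 4C MG132, 1.39 and 0.890 CPM in 4C DMSO, and 22.5 and 33.4 CPM in 2C DMSO. Zfp42, the pluripotency marker REX1, did not reach its vehicle level: it had 1.35 and 2.56 CPM in 4C MG132, 23.2 and 28.4 CPM in 4C DMSO, and 4.07 and 7.74 CPM in 2C DMSO. This was lower than in 4C DMSO by 3.73 ± 0.64 (adjusted p = 0.0132). Tead4, which starts the trophectoderm programme, had 10.8 and 9.86 CPM in 4C MG132, 35.0 and 33.5 CPM in 4C DMSO, and 0.599 and 0.307 CPM in 2C DMSO. The gene was called against 2C DMSO (4.49 ± 0.58, adjusted p = 0.000877) and not against 4C DMSO (adjusted p = 0.0737). Of 27 tested trophectoderm and epithelial genes (29 members), 3 rose and 5 fell against 2C DMSO (11.1% and 18.5%, below the 17.7% and 20.1% of all genes). In the vehicle passage 5 rose and 10 fell. Against 4C DMSO 2 were higher and 1 lower in 4C MG132 (7.41% and 3.7%, near the 5.72% and 3.23% of all genes). Of 10 genes of the Myc family and partners, 2 rose and 2 fell against 2C DMSO. This was 20% each way, near the 17.7% and 20.1% of all genes. Myc itself had 3.40 and 0.717 CPM in 4C MG132, 7.95 and 4.41 CPM in 4C DMSO, and 11.3 and 8.42 CPM in 2C DMSO. Myc was called against neither.

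The largest differences from 4C DMSO included genes high in 4C DMSO and near 0 in 4C MG132, and genes near 0 in 4C DMSO. Hist1h1b, a replication-dependent linker histone, had no count in 4C MG132, 15 and 12.3 CPM in 4C DMSO, and 2.08 and 0.648 CPM in 2C DMSO. It was at least 231-fold lower than in 4C DMSO. Replication-dependent histone RNAs lack a poly(A) tail in most cells. Sox21, a transcription factor of early lineage bias in 4-cell embryos, had 0.177 and 0.0897 CPM in 4C MG132, 22.1 and 14.7 CPM in 4C DMSO, and 0.378 and 0.170 CPM in 2C DMSO. Sox21 was lower than in 4C DMSO by 7.03 ± 0.93 on the log2 scale (adjusted p = 0.00852). Slc39a2, a zinc transporter, had 0.106 and 0 CPM in 4C MG132 against 11.3 and 11.1 CPM in 4C DMSO, and Olfr1459, an odorant receptor gene, had 0.0708 and 0.135 CPM against 60.3 and 45.7 CPM. These 3 genes stood near their 2C DMSO levels in 4C MG132. On the other side, Morc4, a nuclear ATPase of the MORC family, had 12.5 and 15.1 CPM in 4C MG132, no count in 4C DMSO, and 7.78 and 3.17 CPM in 2C DMSO. It was at least 242-fold higher than in 4C DMSO (adjusted p = 0.00745). Nudt7, a peroxisomal coenzyme A hydrolase, had 15.7 and 5.11 CPM in 4C MG132, 0.0365 and 0 CPM in 4C DMSO, and 81.2 and 126 CPM in 2C DMSO. Mylip, the ubiquitin ligase of the LDL receptor, was above both vehicle groups, with 38.5 and 48.6 CPM in 4C MG132, 1.68 and 0.193 CPM in 4C DMSO, and 6.68 and 6.92 CPM in 2C DMSO. Its call against 2C DMSO was lost under 3 alternatives.

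A smaller share of repeat subfamilies than of genes was called. Of 1023 tested subfamilies, 111 (10.9%) were called against 2C DMSO, with 60 (5.87%) higher and 51 (4.99%) lower in 4C MG132. In the vehicle passage 216 (21.1%) were called, with 67 (6.55%) higher and 149 (14.6%) lower in 4C DMSO. Against 4C DMSO 13 (1.27%) were called, 7 (0.684%) higher and 6 (0.587%) lower in 4C MG132. The count fell to 1 without the second 4C MG132 library or either 4C DMSO library and to 8 without either 2C DMSO library. The count against 2C DMSO was 68 and 56 without the first and the second 4C MG132 library, and 49 and 41 without the first and the second 2C DMSO library. By class, 47 of 612 LTR subfamilies rose and 33 fell against 2C DMSO, 7 of 35 SINE subfamilies rose and none fell, 5 of 151 LINE subfamilies rose and 8 fell, and 1 of 176 DNA transposon subfamilies rose and 7 fell. Counts on a subfamily pool all its copies, those inside genes included.

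MERVL, the marker retrovirus of the 2-cell state, overlapped its 2C DMSO level in the embryos in MG132 at 4 cells. MERVL-int, its internal part, had 15300 and 24400 CPM in 4C MG132, 7270 and 6590 CPM in 4C DMSO, and 21900 and 13400 CPM in 2C DMSO. The 4C MG132 libraries overlapped those of 2C DMSO (0.17 ± 0.48 on the log2 scale, adjusted p = 0.893) and lay above those of 4C DMSO without passing the test (1.52 ± 0.49, adjusted p = 0.184). Its promoter repeat MT2_Mm had 17900 and 22800 CPM in 4C MG132, 8450 and 6420 CPM in 4C DMSO, and 9500 and 8880 CPM in 2C DMSO. It lay above both vehicle groups by 1.45 ± 0.26 over 4C DMSO (adjusted p = 0.0372, lost under 11 alternatives) and 1.15 ± 0.26 over 2C DMSO (adjusted p = 0.0251, lost under 5). In 2C MG132 embryos MERVL-int had 32.0 and 92.9 CPM and MT2_Mm 174 and 204 CPM, below every other library of the fit. The drug effect differed between the stages for both by a test of the difference itself, which called 31.3% of all subfamilies and 13.2% of all genes. MT2C_Mm, a related LTR, came on with the stage, with 33100 and 35200 CPM in 4C MG132, 28000 and 25400 CPM in 4C DMSO, and 991 and 742 CPM in 2C DMSO. This was a rise over 2C DMSO of 5.30 ± 0.32 (adjusted p = 5.58e-05).

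One LTR element differed widely between the 4-cell groups. RLTR45-int had 197 and 104 CPM in 4C MG132, 2260 and 2360 CPM in 4C DMSO, and 41.5 and 50.1 CPM in 2C DMSO. This was lower than in 4C DMSO by 3.94 ± 0.36 on the log2 scale (adjusted p = 0.00214), and it was called in each alternative run. It was higher than in 2C DMSO by 1.72 ± 0.33 (adjusted p = 0.0124, lost under 3 alternatives). ERVB4_2-I_MM-int took the same order, with 45.5 and 20.0 CPM in 4C MG132, 201 and 232 CPM in 4C DMSO, and 11.6 and 9.41 CPM in 2C DMSO. Its calls were lost under 3 alternatives against 4C DMSO and 5 against 2C DMSO. RLTR45, the LTR that goes with RLTR45-int, had 113 and 118 CPM in 4C MG132, 395 and 407 CPM in 4C DMSO, and 68.5 and 176 CPM in 2C DMSO. RLTR45 passed neither test (adjusted p = 0.132 against 4C DMSO and 0.95 against 2C DMSO). IAPLTR4, an LTR of intracisternal A particles, was above both vehicle groups, with 88.7 and 116 CPM in 4C MG132, 20.2 and 18 CPM in 4C DMSO, and 13.4 and 17.9 CPM in 2C DMSO (adjusted p = 0.0188 against 4C DMSO, lost under 4 alternatives). IAPEz-int, the internal part of those particles, rose over 2C DMSO by 2.26 ± 0.30 with 1120 and 1210 CPM in 4C MG132, 1290 and 801 CPM in 4C DMSO, and 236 and 251 CPM in 2C DMSO. MTA_Mm-int, a transposon of the oocyte transcriptome, fell against 2C DMSO by 2.51 ± 0.32, with 10600 and 8960 CPM in 4C MG132, 4260 and 4890 CPM in 4C DMSO, and 51500 and 60300 CPM in 2C DMSO. The young LINE-1 subfamilies L1Md_A, L1Md_T and L1Md_Gf and the major satellite GSAT_MM passed neither test, and L1Md_A had 436 and 467 CPM in 4C MG132, 317 and 204 CPM in 4C DMSO, and 286 and 288 CPM in 2C DMSO.

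**Figure D5:**
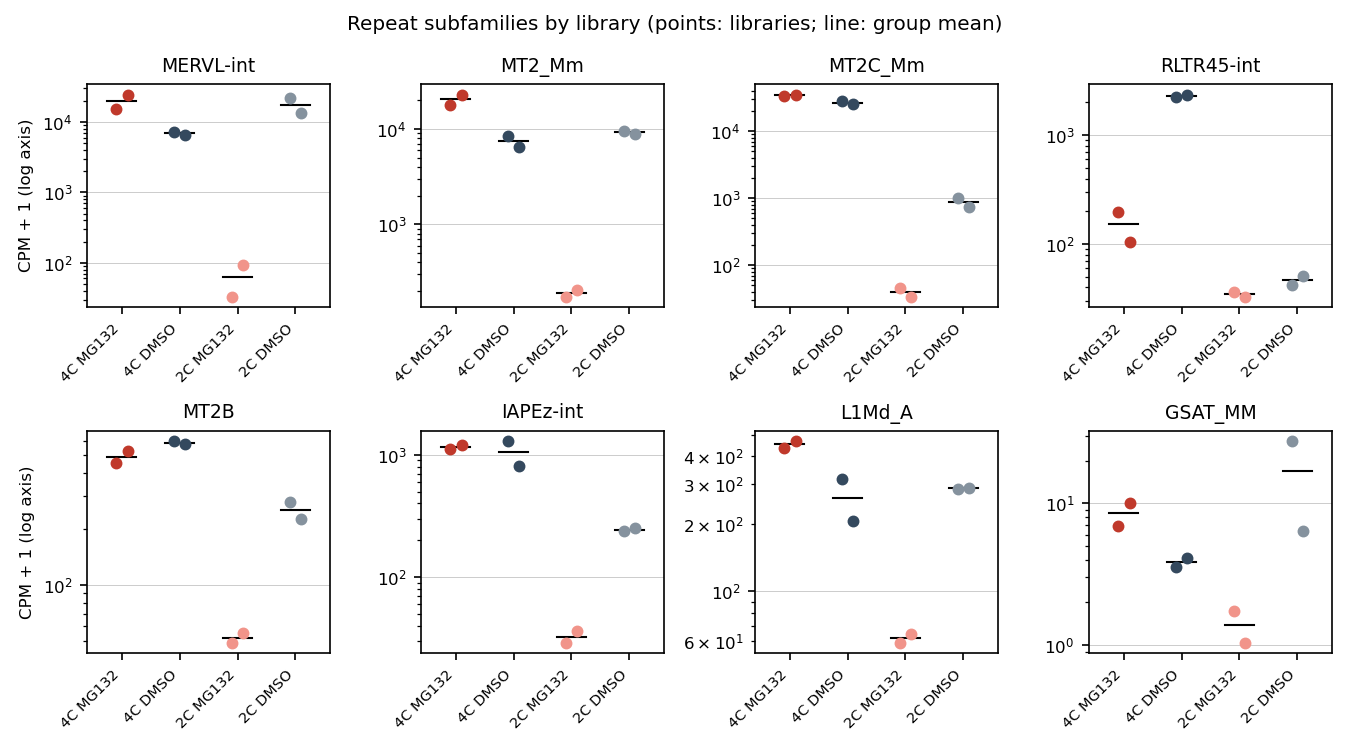
CPM + 1 of repeat subfamilies (log axis) in each library of 4C MG132, 4C DMSO, 2C MG132 and 2C DMSO, 1 point a library, 2 libraries a group and a line for the group mean. MERVL-int in 4C MG132 lies at 15300 and 24400 CPM, beside 21900 and 13400 CPM in 2C DMSO, and RLTR45-int lies at 197 and 104 CPM in 4C MG132 and at 2260 and 2360 CPM in 4C DMSO.

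The embryos in MG132 were last set against embryos of the same stage label in other inhibitors, over 30 index genes of stage, stress, ribosome, proteasome and lineage in a fit of 16 libraries, whose CPM differ slightly by scaling. Against aphidicolin 5 of the 30 were called, beside 1172 of 26804 genes (4.37%), and against cycloheximide 9 of the 30, beside 1964 (7.33%). Dnajb1 was higher in MG132 than in both, with 381 and 811 CPM in MG132, 57.8 and 92.7 CPM in aphidicolin and 18.5 and 46.4 CPM in cycloheximide (2.99 ± 0.50 and 4.20 ± 0.52 on the log2 scale, adjusted p = 0.00641 and 0.000909). Hspa1a had 53.5 and 52.1 CPM in MG132, 0.473 and 0.356 CPM in aphidicolin and 7.34 and 8.02 CPM in cycloheximide, called against aphidicolin (adjusted p = 0.0141) and not against cycloheximide (adjusted p = 0.153). Cdkn1a was lower in MG132 than in both, with 17.2 and 44.6 CPM in MG132, 116 and 201 CPM in aphidicolin and 160 and 206 CPM in cycloheximide (adjusted p = 0.0287 and 0.0136). Rps27 had 1280 and 1130 CPM in MG132 against 159 and 176 CPM in cycloheximide (adjusted p = 0.00678), and 2090 and 702 CPM in aphidicolin, which it overlapped. Ddit3 had 76.2 and 69.7 CPM in MG132, 31.9 and 28.9 CPM in aphidicolin and 122 and 117 CPM in cycloheximide, and neither difference passed the test (adjusted p = 0.0664 and 0.245). Btg4 had 185 and 142 CPM in MG132, 54.9 and 153 CPM in aphidicolin and 206 and 199 CPM in cycloheximide, with no call against either.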

How the data were processed

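Counts are the authors' deposited read counts per gene and per repeat subfamily, 1 table a library, not normalized. Per the labels' protocols, embryos were lysed whole and libraries made by Smart-seq2. Per the submitters' processing notes, cutadapt 1.16 and STAR were used with build mm10. The counter, its annotation, its use of strand and its treatment of reads with several matches are, in the sources used here, not given. Of 55335 gene IDs, 55154 matched GENCODE M21 without the version suffix, and names and coordinates come from it.

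Counts of 8 libraries (4C MG132, 4C DMSO, 2C MG132 and 2C DMSO) entered 1 fit with edgeR 4.0.16 in R 4.3.3, with TMM over genes and repeats together and rows kept by filterByExpr (minimum count 10, minimum total 15). The robust quasi-likelihood F test with 4 residual degrees of freedom gave p-values, adjusted by Benjamini-Hochberg over genes and, separately, over repeats, with a threshold of 0.05. An SE is the log2 fold change divided by the root of F. A fold against a group at 0 takes 3 counts over the group as its floor, and with 1 to 3 counts a ratio with an exact 95% interval is given, which covers counting error only. Other fits used DESeq2 1.42.0, other filters and scalings, the 4 libraries compared or all 16 embryo libraries, and 7 of the 8 libraries. The fit was tested on simulated data.

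Named genes are the 12 largest increases and 12 largest decreases against 2C DMSO, and the 8 of each against 4C DMSO, among called genes with known symbols, a mean of at least 10 CPM in the higher group and no overlap between libraries. To these come up to 6 called members of each list (at least 5 CPM), the index genes, and for repeats the 5 largest changes each way and the index subfamilies. A few named genes are not reported here. The members and lists were chosen with earlier results of these data known. Lists are described by counts and medians beside those of all tested genes.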

Additional observations from a re-analysis of the deposited data

Results flagged for a closer look

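For 17 of 29 index genes and 14 of 19 index repeat subfamilies, the effect of MG132 at 4 cells (4C MG132 against 4C DMSO) differed from its effect at 2 cells (2C MG132 against 2C DMSO) by edgeR's test of the difference itself, beside 13.2% of all genes and 31.3% of all subfamilies. Values below are the log2 effect at 4 cells minus the log2 effect at 2 cells.

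The stress genes among them had a higher effect at 4 cells. The heat shock and chaperone list as a whole had 9 of 41 genes higher and 4 lower in 2C MG132 than in 2C DMSO, beside 3.03% and 5.39% of all genes. Its summed level was 8210 and 7650 CPM in 2C MG132 against 3500 and 3440 CPM in 2C DMSO, and 12400 and 14300 CPM in 4C MG132 against 10600 and 9540 CPM in 4C DMSO. The difference was 4.21 for Dnajb1, whose effects were 4.35 at 4 cells and 0.14 at 2 cells, and 2.75 for Ddit3, with effects of 2.83 and 0.08. It was 11.91 for Hspa1a, 11.07 for Hspa1b, 9.91 for Bag3, 6.49 for Hspb1 and 1.57 for Ubb, whose effects at 2 cells were below 0. Hspa1a, Hspa1b and Bag3 had 3 counts or fewer over the 2C MG132 libraries, so their fitted differences are no bounds. Proteasome subunits had the opposite sign, with -3.12 for Psmb5, -2.74 for Psmd14, -2.73 for Psmd12 and -1.78 for Psma3. Each had a fitted effect above 0 at 2 cells and below 0 at 4 cells. By edgeR none was called at 4 cells (adjusted p = 0.0635 to 0.232), and Psma3 was not called at 2 cells (0.78, adjusted p = 0.164). Stage genes gave 11.64 for Zfp352, 5.78 for Zscan4d, 4.91 for Tead4 and 3.18 for Btg4. Myc, which had no count in 2C MG132, gave 9.49, and the cell-cycle inhibitor gene Cdkn1a gave 2.99. Of these only Btg4 was called by edgeR at 4 cells, with effects of 2.67 there and -0.51 at 2 cells. The others were called lower at 2 cells. Their effects at 4 cells were 2.46 for Zfp352, 1.43 for Zscan4d, -1.73 for Tead4, -1.58 for Myc and 0.11 for Cdkn1a.

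Among repeats, MERVL-int gave 9.66 and MT2_Mm 7.06, with effects of 1.52 and 1.45 at 4 cells and of -8.14 and -5.61 at 2 cells. The other LTR subfamilies gave 4.84 for MT2C_Mm, 4.53 for ORR1A0-int, 4.14 for ORR1A0, 3.09 for IAPEz-int, 2.98 for IAPLTR1_Mm, 2.06 for MT2B and 1.52 for MTA_Mm-int. LINE-1 subfamilies gave 3.58 for L1Md_Gf, 3.04 for L1Md_A and 2.93 for L1Md_T, and the satellite GSAT_MM gave 6.88. From MT2C_Mm to GSAT_MM, none was called by edgeR at 4 cells, where effects ran from -0.41 to 1.40. Effects at 2 cells were all below 0, from -5.48 for GSAT_MM to -0.43 for MTA_Mm-int. All but MTA_Mm-int were called there. RLTR45-int alone among these had a negative value, -3.49, with an effect of -3.94 at 4 cells and -0.45 at 2 cells. The first 2C MG132 library had the fewest counts of the fit, 14505195, and the part of its depth was not tested.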

How the results depend on the processing

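Counts of called genes and subfamilies stayed within 1.5 times the reported ones under DESeq2's size factors, gene-only library sizes, a 5 CPM filter and the fit of all 16 embryo libraries. The exceptions elsewhere were these. DESeq2's Wald test called 4241 genes and 58 subfamilies against 4C DMSO, 222 subfamilies against 2C DMSO, 3486 genes in 2C MG132 against 2C DMSO and 4833 for the difference of drug effects between stages. With no low-count filter these counts were 4002 genes and 34 subfamilies against 4C DMSO, 3231 and 4822. The 4 libraries alone gave 56 subfamilies against 2C DMSO, and against 4C DMSO they gave 39.7% of called genes as higher in 4C MG132, in place of 63.9%.

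With 1 library left out, called genes ranged over 6081 to 8715 against 2C DMSO, 710 to 1956 against 4C DMSO, 7816 to 11425 in the vehicle passage, 6740 to 10522 in 4C MG132 against 2C MG132, 835 to 2235 in 2C MG132 against 2C DMSO and 1504 to 2934 for the difference of drug effects. Called subfamilies ranged over 41 to 109, 1 to 10, 75 to 225, 242 to 418, 147 to 360 and 143 to 287 in the same order. Without the second 4C MG132 library 77.4% of genes called against 4C DMSO were higher.

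The replicate numbers were not taken to pair the libraries, since deviations of same-numbered libraries correlated between -0.012 and 0.0279 over 7550 genes in 5 of 6 pairs of groups, and at 0.322 between 2C MG132 and 2C DMSO. With the replicate block the counts were 7848 genes against 2C DMSO and 1791 against 4C DMSO, 103 and 7 subfamilies. They were 1671 genes and 304 subfamilies in 2C MG132 against 2C DMSO and 2623 and 273 for the difference of drug effects.

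With the sets taken at 2-fold, the zygotic median was -1.06 against 2C DMSO and 0.68 against 4C DMSO, and the maternal median -0.26 and 0.00. At 8-fold the zygotic medians were -0.33 and 0.82 and the maternal median against 2C DMSO 0.72. The cause of these shifts was not tested. For single named genes and subfamilies, 8818 refits kept their side of the threshold, 508 lost a call and 177 gained one, and no called value changed sign. Gene-only scaling moved the median of all genes by 0.15 in the vehicle passage and by -0.18 in 2C MG132 against 2C DMSO. Depth limits genes with no count in a group, for which the fold is a bound.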
